A study of Homo sapiens with 6 samples.

Results

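The subunit genes of 2 protein families were followed: the integrins, which are cell-surface adhesion receptors, and the laminins, the main glycoproteins of basement membranes. Members were the rows of the gene table whose symbol is that of an integrin alpha (ITGA), integrin beta (ITGB), or laminin alpha, beta or gamma chain (LAMA, LAMB, LAMC). The 38 members among 58302 genes were 26 integrin and 12 laminin genes, and 29 of them (19 integrin and 10 laminin genes) had enough reads to be tested, among 15945 tested genes in all. RNA was sequenced from PC-3 cells, an established human prostate carcinoma line from a bone metastasis. The BHLHE22 group carried a lentivirus that overexpresses the transcription factor BHLHE22, and the vector group carried a blank lentivirus, with 3 libraries in each. The labels give no further allele, agent or time point, and they leave unsaid if libraries of a group are separate cultures or 1 transduced pool, so the p-values measure library-to-library spread only, which could be purely technical.

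Every integrin is a pair of 1 alpha and 1 beta subunit. The beta subunit carries most of the link to the actin cytoskeleton, and the pair sets the ligand: ITGB1 pairs with many alpha subunits to bind collagens, laminins and fibronectin, while ITGAV pairs with ITGB1, ITGB3, ITGB5, ITGB6 or ITGB8 to bind ligands such as fibronectin, vitronectin and latent TGF-beta. Every laminin is a trimer of 1 alpha, 1 beta and 1 gamma chain. A trimer that holds LAMA3 and LAMB3 anchors epithelia to their basement membrane and is bound by the integrins of ITGA3 with ITGB1 and of ITGA6 with ITGB4, the last of which sits in hemidesmosomes.

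Total counts were between 12186723 and 15808990 in the BHLHE22 libraries and between 13889050 and 15949537 in the vector libraries, and all pairs of libraries differed by more than sampling noise (chi-square per degree of freedom 10.98 to 22.5 within groups and 69.2 to 136 between them). BHLHE22 itself had 98, 92 and 133 reads in the BHLHE22 libraries, against 1 read in each vector library. The carcinoma markers KRT8, KRT18, EPCAM and VIM were present in all libraries, and the prostate luminal gene KLK3, which PC-3 cells are known to lack, had 0 reads over the BHLHE22 and 0 over the vector libraries. Unless said otherwise, levels are TMM-scaled CPM (read counts relative to the library total, with trimmed-mean scaling between libraries), fold changes are BHLHE22 over vector on the log2 scale with their standard error (SE), and p-values are those of edgeR's quasi-likelihood test, adjusted by Benjamini-Hochberg over all tested genes. The threshold for a call was an adjusted p of 0.05.

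Of the 29 tested members, 13 (44.8%) were called, where 49.4% of all tested genes were called. The called members were 3 that rose and 10 that fell, beside 25.1% of all tested genes that rose and 24.3% that fell. A fall of at least 2-fold was found for 5 members and a rise of that size for 1, beside 8.15% and 8.17% of all tested genes. The groups did not overlap for 14 of the 29 tested members, against 60.5% of all tested genes. The median log2 fold change of the tested members was -0.11 and that of all tested genes 0.004. With unscaled library sizes, which shift the typical gene by 0.146, the members' median was 0.035, and 3 were called higher and 10 lower as before. The 3 rises were ITGA4, ITGB7 and ITGB1. The 10 falls were ITGA10, ITGAV, ITGA2B, ITGB2, ITGB3, ITGB5, ITGB8, LAMA3, LAMA4 and LAMB2.

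**Figure D1:**
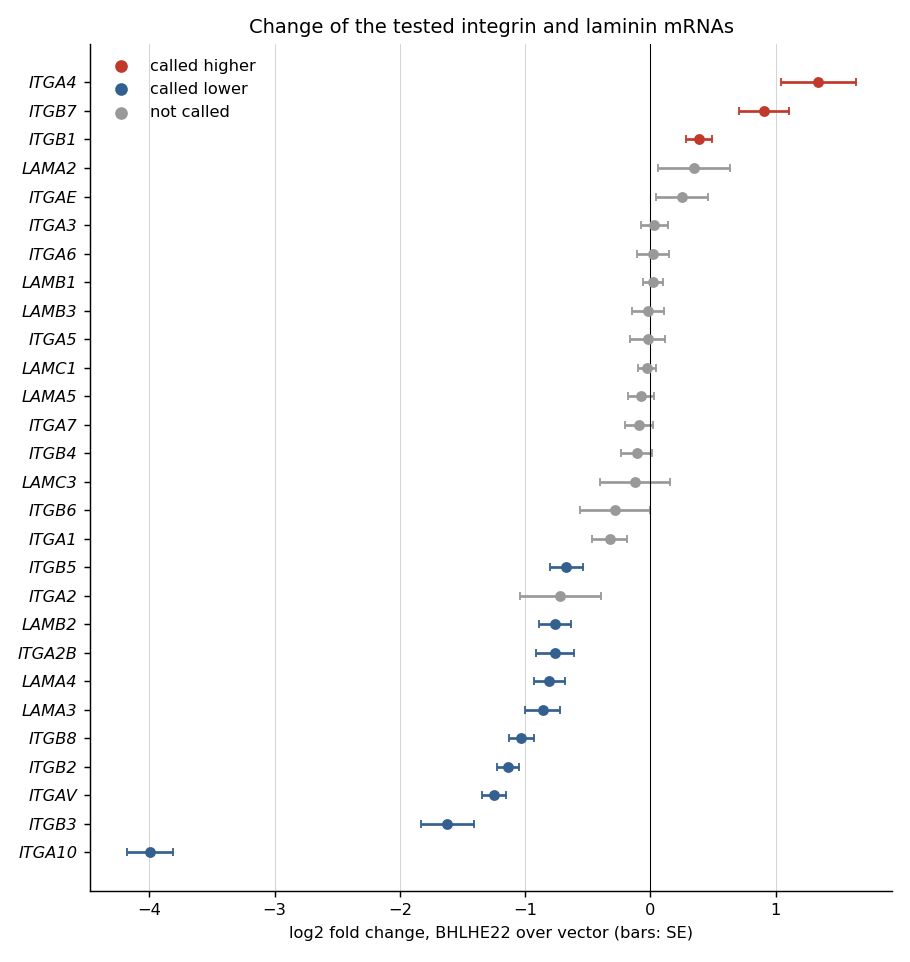
Log2 fold change (BHLHE22 over vector) of 28 of the 29 tested integrin and laminin genes, with bars for the SE, in red for genes called higher, blue for genes called lower and grey for genes not called. ITGA10 lies apart at -3.99, the other called falls lie between -1.62 and -0.67, and the chains LAMB1, LAMB3 and LAMC1 lie close to 0.

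The deposited FPKM values divide by a fixed length for each gene, so that levels of different genes can be set side by side. That length was not checked against the transcripts of these cells, and orders, shares and ratios between genes rest on it. The fold difference of such a ratio between the groups does not. On the FPKM scale the most abundant member mRNAs were those of ITGB1, of subunits of laminin-binding integrins and of laminin chains. No integrin pair or laminin trimer was measured. The 4 most abundant members in the BHLHE22 libraries were ITGB1 (170.2 ± 15.9 FPKM), ITGA3 (95.3 ± 13.5), LAMB3 (87.1 ± 3.6) and ITGB4 (62.1 ± 10.4; SD, n = 3). In the vector libraries the 5 most abundant were ITGB1 (117 ± 9.8 FPKM), ITGA3 (84.3 ± 2.7), LAMB3 (79.5 ± 12.8), ITGB4 (60.5 ± 2.8) and LAMA3 (59.6 ± 11.02; SD, n = 3). The spreads of LAMB3 and ITGA3 overlapped in both groups, as did those of ITGB4 and LAMA3 in the vector group, so neighbours in this order are not always distinct. LAMA3 was in place 7 of the 38 members in the BHLHE22 libraries, against place 5 in the vector libraries. ITGA10 was in place 24 in the BHLHE22 libraries, against place 16 in the vector libraries.

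**Figure D2:**
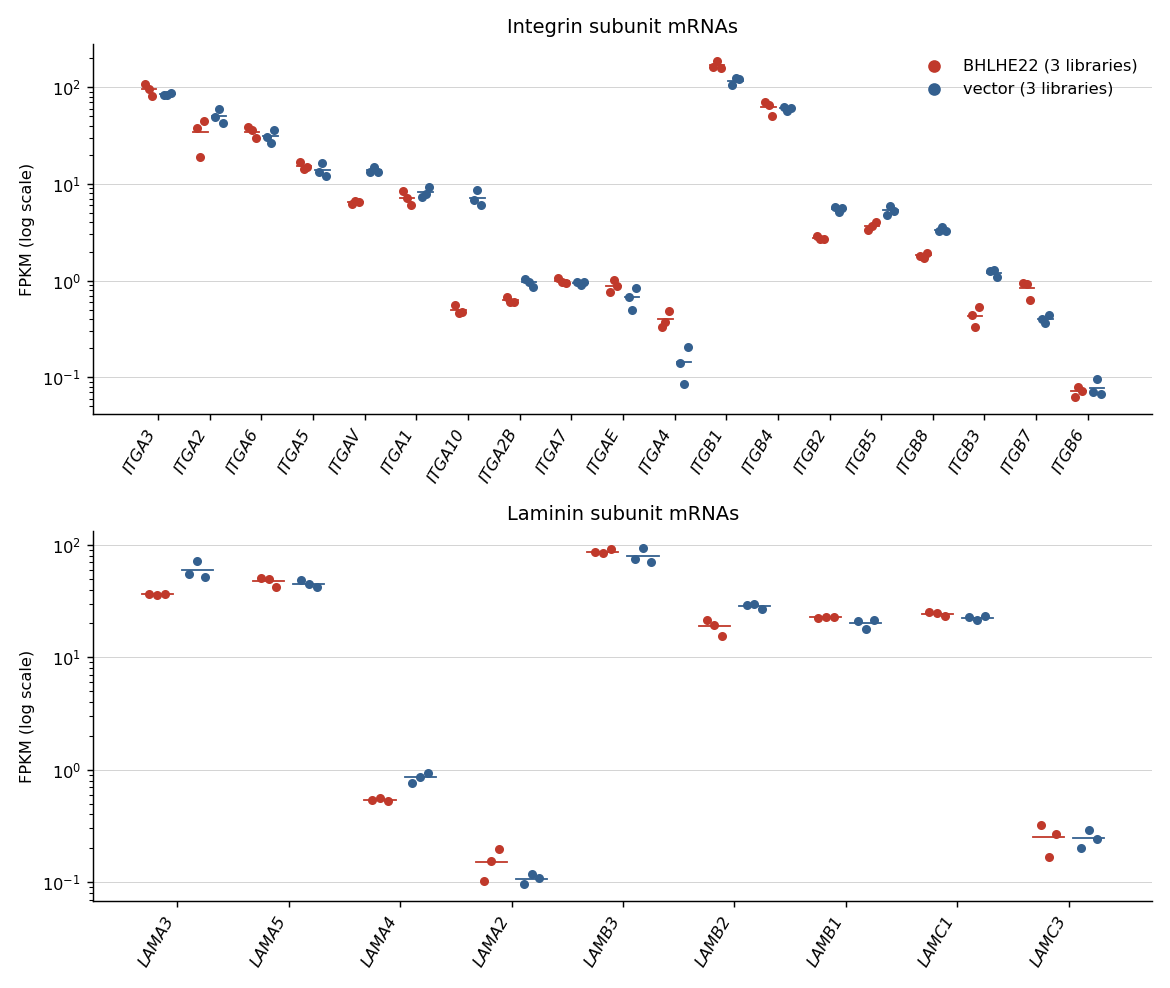
FPKM on a log scale for 28 of the 29 tested members in each of the 3 BHLHE22 libraries (red, left) and 3 vector libraries (blue, right), with bars at the group means, integrins above and laminins below. The points of ITGA10, ITGAV, ITGB2, ITGB8 and LAMA3 are lower in every BHLHE22 library than in every vector library, and levels span from under 0.1 FPKM for ITGB6 to over 100 FPKM for ITGB1.

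The largest change of any member was that of ITGA10 (ENSG00000143127, chromosome 1, 145891208 to 145910189, GRCh38, 28 merged exons), which encodes a collagen-binding alpha subunit that pairs with ITGB1 and is best known from cartilage. It had 60, 55 and 66 reads in the BHLHE22 libraries, against 839, 1210 and 777 reads in the vector libraries. Scaled for depth these were 4.68, 3.95 and 3.96 CPM in BHLHE22 cells and 63.5, 82.3 and 54.7 CPM in vector cells. The highest BHLHE22 library lay far below the lowest vector library. ITGA10 fell 15.9-fold (log2 fold change -3.99, SE 0.19, adjusted p = 1.72e-05). Over all 13 alternative analyses its log2 fold change was between -4.11 and -3.81.

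The sequence before the gene's start is shown for ITGA10, the largest change, and for ITGAV, the most abundant called fall among the alpha subunits, since BHLHE22 belongs to the basic helix-loop-helix factors, which bind the E-box CANNTG. Sequences are those of RefSeq on GRCh38.p14, read 5′ to 3′ on the gene's strand, in lower case with CANNTG in capitals; bases that GENCODE 29 puts in an exon of a protein-coding gene were left out. ITGA10 is shown from chr1:145910190-145910300 (minus strand, 250 to 140 bases before the start). ITGAV has 2 RefSeq starts, shown from chr2:186589806-186590055 and chr2:186599955-186600204 (plus strand, 250 to 1 bases before each start).
ITGA10: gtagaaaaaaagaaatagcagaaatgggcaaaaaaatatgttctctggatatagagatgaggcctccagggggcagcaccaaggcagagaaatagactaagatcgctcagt
ITGAV, upstream start: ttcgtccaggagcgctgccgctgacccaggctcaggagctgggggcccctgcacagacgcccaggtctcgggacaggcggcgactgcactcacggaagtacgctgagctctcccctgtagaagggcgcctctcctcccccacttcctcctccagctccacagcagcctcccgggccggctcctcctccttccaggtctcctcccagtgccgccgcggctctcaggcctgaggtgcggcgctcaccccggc
ITGAV, downstream start: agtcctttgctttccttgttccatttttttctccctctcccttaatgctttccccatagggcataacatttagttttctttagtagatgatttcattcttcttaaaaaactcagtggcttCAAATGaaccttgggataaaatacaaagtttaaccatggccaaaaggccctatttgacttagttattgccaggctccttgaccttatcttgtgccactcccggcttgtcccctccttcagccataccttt

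CANNTG reads as CANNTG on the other strand too, so a match counts for both. The full window of 250 bases before the ITGA10 start held 0 matches, as did the upstream ITGAV window, and the downstream ITGAV window held 1. Of 35116 RefSeq windows of that length, 61.8% held at least 1 match. The table gave a window for 26 of the 38 members, and 15 of these (57.7%) had a match in at least 1 window. The 57.7% counts a gene with a match in any of its windows and the 61.8% counts single windows, so these shares are unlike measures. Of the matched members that fell, 3 of 8 had a match, against 1 of the 3 that rose and 7 of the 11 not called. The absence of these letters from a window says nothing of the factor.

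The other collagen-binding alpha subunits are ITGA1, ITGA2 and ITGA11. ITGA2, the collagen receptor subunit of epithelia and platelets, had 325, 166 and 389.6 CPM in the BHLHE22 libraries and 465, 586 and 400.4 CPM in the vector libraries. The groups did not overlap, but BHLHE22 replicate 2 lay far below the rest of its group, and the difference was not called (log2 fold change -0.72, SE 0.32, adjusted p = 0.114). Without BHLHE22 replicate 2 the log2 fold change was -0.43 (adjusted p = 0.0944), and DESeq2 called the gene (adjusted p = 0.0236). ITGA1 had 190.2, 163 and 134 CPM in the BHLHE22 libraries, against 184, 199.7 and 227 CPM in the vector libraries, and was not called (log2 fold change -0.33, adjusted p = 0.0863). Its call was reached without BHLHE22 replicate 1 (log2 fold change -0.44, adjusted p = 0.0315). ITGA11 had 0 reads in all 6 libraries, which allows up to 0.0691 CPM in BHLHE22 cells and 0.0712 CPM in vector cells, taking 3 counts over a group as the limit of counting error.

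ITGAV fell, as did 3 of its 5 possible beta partners, where 24.3% of all tested genes fell; no test was made of these genes as a set. ITGAV itself (ENSG00000138448, chromosome 2, 186590065 to 186680901) had 79.4, 87.2 and 83.3 CPM in BHLHE22 cells, against 188, 219.7 and 186 CPM in vector cells. It fell 2.38-fold (log2 fold change -1.25, SE 0.09, adjusted p = 0.000117). The level was nearly the same in the 3 BHLHE22 libraries, and all of them lay well below the vector libraries.

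Among the beta partners, ITGB3, the beta subunit of the classical vitronectin receptor, had the largest fall. It had 2.11, 1.58 and 2.52 CPM in BHLHE22 cells and 6.58, 7.07 and 5.56 CPM in vector cells (log2 fold change -1.62, SE 0.21, adjusted p = 0.000836). This was a low-level gene, with 91 reads over the BHLHE22 libraries and 270 over the vector libraries. ITGB8, whose pair with ITGAV is known for activating latent TGF-beta, had 30.5, 29.3 and 32.6 CPM in BHLHE22 cells, against 60.3, 69.1 and 59.4 CPM in vector cells (log2 fold change -1.03, SE 0.10, adjusted p = 0.000288). ITGB5, a second vitronectin receptor subunit, had 29.1, 32.7 and 35.6 CPM in BHLHE22 cells and 46.3, 59.5 and 49.2 CPM in vector cells (log2 fold change -0.67, SE 0.13, adjusted p = 0.00416). None of these 3 genes overlapped between the groups, as was so for 60.5% of all tested genes.

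The remaining partners are ITGB6 and ITGB1. ITGB6, the epithelial partner of ITGAV, was a low-level gene, with 39 reads over the BHLHE22 libraries and 46 over the vector libraries, and was not called (log2 fold change -0.28, SE 0.28, adjusted p = 0.459). ITGB1 rose. Within the summed FPKM of the 8 beta subunits, ITGB3, ITGB5, ITGB6 and ITGB8 together made up 2.52 ± 0.44% in BHLHE22 libraries and 5.14 ± 0.35% in vector libraries (SD, n = 3).

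ITGA2B, which pairs with ITGB3 on platelets, also fell, at a low level. It had 4.92, 4.38 and 4.32 CPM in BHLHE22 cells, against 8.32, 7.96 and 6.76 CPM in vector cells (log2 fold change -0.76, SE 0.15, adjusted p = 0.00468). The platelet markers PF4, PPBP, GP9 and GP1BA had 59, 5, 0 and 1 reads over the BHLHE22 libraries and 26, 0, 0 and 1 over the vector libraries. PF4 rose (log2 fold change 1.13, adjusted p = 0.0106), and the other 3 were too low to be tested. The summed level of these 4 genes was 1.33 to 1.58 CPM in the BHLHE22 and 0.529 to 0.704 CPM in the vector libraries. The part of such cells in the results for ITGA2B and ITGB3 was not tested.

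The other RGD-binding alpha subunits, named for the Arg-Gly-Asp motif of their ligands, are ITGA5 and ITGA8. ITGA5, the fibronectin receptor subunit, had 206, 174 and 181 CPM in BHLHE22 cells, against 180.1, 229 and 159 CPM in vector cells, and the groups overlapped (log2 fold change -0.02, SE 0.14, adjusted p = 0.921). The FPKM ratio of ITGAV to ITGA5 within a library was 0.422 ± 0.055 in BHLHE22 cells and 0.993 ± 0.100 in vector cells (SD, n = 3). ITGA8 had 0 reads over the BHLHE22 libraries and 4 over the vector libraries and was not tested.

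ITGB1, the common beta subunit, rose by a modest amount and is a highly expressed gene. It had 1658, 1917 and 1597 CPM in BHLHE22 cells and 1184, 1435 and 1324 CPM in vector cells (log2 fold change 0.39, SE 0.10, adjusted p = 0.0160). All 3 BHLHE22 libraries lay above the vector libraries. The call was lost without BHLHE22 replicate 2 (adjusted p = 0.0622) or without vector replicate 1 (adjusted p = 0.058), with the log2 fold change at 0.32 in both. As a share of the summed beta subunit FPKM, ITGB1 made up 70.4 ± 2.8% in BHLHE22 libraries, against 60.5 ± 2.7% in vector libraries. The summed FPKM of the 18 alpha subunits, divided by that of ITGB1, was 1.17 ± 0.19 in BHLHE22 libraries, against 1.82 ± 0.12 in vector libraries (SD, n = 3).

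The alpha subunits of the laminin-binding integrins, and ITGB4, were not called. ITGA3 had 1723, 1538 and 1292 CPM in BHLHE22 cells, against 1461, 1494 and 1504 CPM in vector cells (log2 fold change 0.03, SE 0.11, adjusted p = 0.838). ITGA6 averaged 357 ± 46 CPM in BHLHE22 cells and 352 ± 44 CPM in vector cells (log2 fold change 0.02, SE 0.13, adjusted p = 0.903). Its hemidesmosomal partner ITGB4 had 676, 628 and 482 CPM in BHLHE22 cells, against 664, 627 and 637 CPM in vector cells, and the log2 fold change was -0.11 (SE 0.12, adjusted p = 0.491). BHLHE22 replicate 3 was the lowest of its group for all 3 genes. ITGA7, the muscle-type laminin receptor subunit, was low at 12.4 ± 0.8 CPM in BHLHE22 and 13.2 ± 0.2 CPM in vector cells (log2 fold change -0.09, adjusted p = 0.535). ITGA3, ITGA6 and ITGA7 together held 67.3%, 72.7% and 59.9% of the summed alpha subunit FPKM in the BHLHE22 libraries, against 55.7%, 50.1% and 59.1% in the vector libraries. The collagen-binding subunits held 21.3%, 14.7% and 27.6% in BHLHE22 libraries and 30.5%, 34.7% and 27.8% in vector libraries, with the groups only just apart in both shares.

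**Figure D3:**
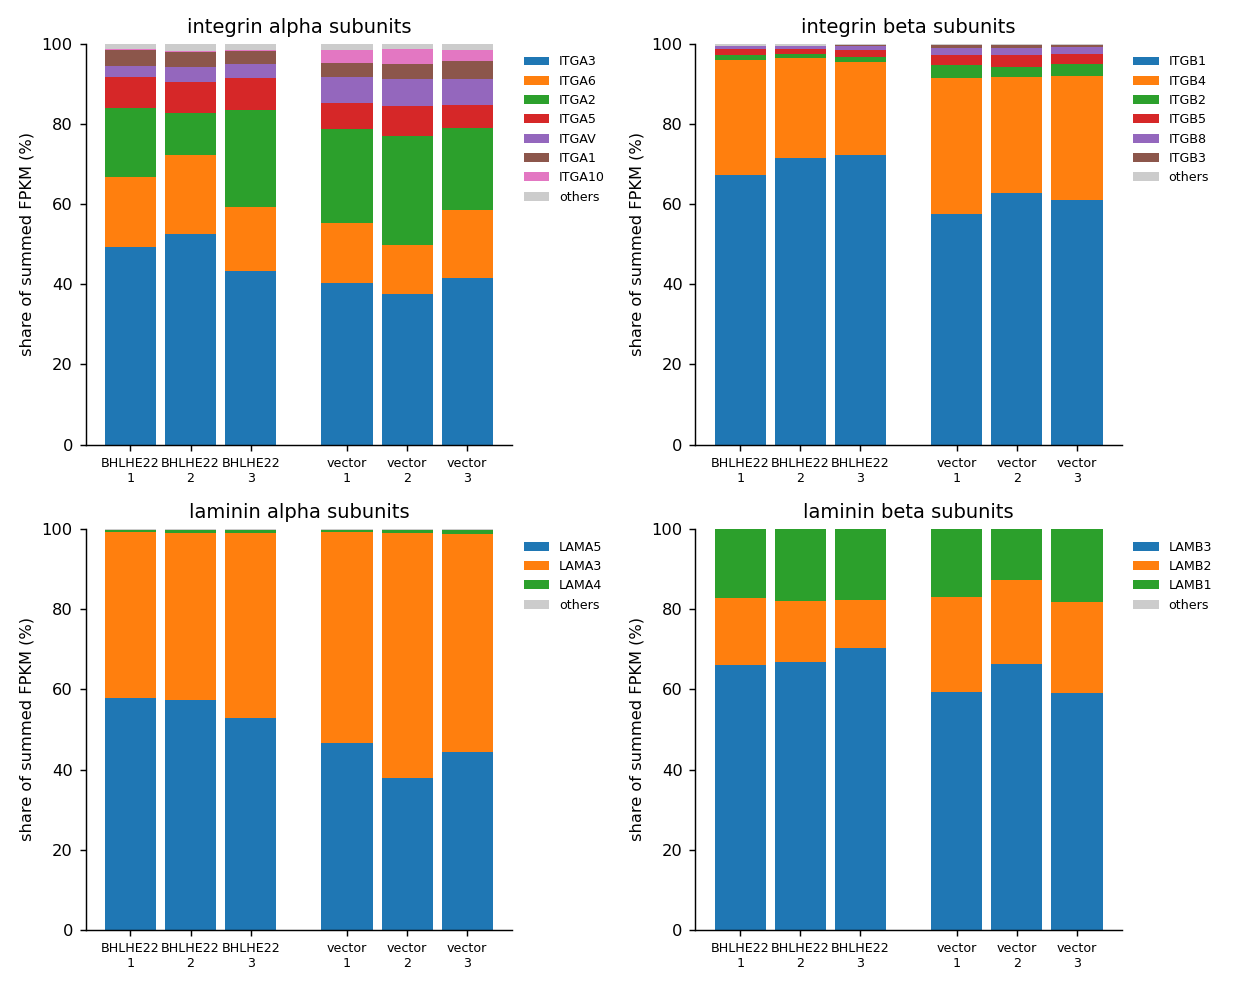
Share of the summed FPKM of a subunit class (y axis, percent) taken by each gene, in the 3 BHLHE22 libraries (left) and 3 vector libraries (right) of each panel, for integrin alpha, integrin beta, laminin alpha and laminin beta genes. ITGB1 takes a larger share of beta subunit mRNA and LAMA5 a larger share of laminin alpha mRNA in every BHLHE22 library than in any vector library, and the ITGA10 segment is barely visible in BHLHE22 libraries.

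The integrins of leukocytes gave a mixed picture at low levels. ITGB2, the beta subunit shared by the leukocyte integrins, had 32.2, 29.7 and 29.8 CPM in BHLHE22 cells, against 69.7, 64.7 and 67.5 CPM in vector cells (log2 fold change -1.14, SE 0.09, adjusted p = 0.000124). The alpha subunits that it is known to pair with, ITGAL, ITGAM, ITGAX and ITGAD, had 4, 21, 0 and 0 reads over the BHLHE22 libraries and 5, 22, 1 and 0 over the vector libraries, and none was tested. In FPKM, ITGB2 averaged 2.76 in BHLHE22 libraries and 5.50 in vector libraries, against at most 0.0707 for any of these alpha subunits. The leukocyte markers PTPRC, TYROBP, CD3E, LCP2 and SPI1 had between 0 and 3 reads over either group. CD79A had 30 reads over the BHLHE22 libraries and 75 over the vector libraries and fell with ITGB2, so the summed level of the 6 leukocyte markers was 0.60 to 0.933 CPM in BHLHE22 and 1.66 to 1.97 CPM in vector libraries. In bulk RNA, fewer cells that express a gene and less RNA per cell cannot be told apart.

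ITGA4, whose pairs with ITGB1 and ITGB7 bind VCAM1 and MADCAM1, rose at a low level. It had 3.75, 4.23 and 5.40 CPM in BHLHE22 cells and 1.74, 1.09 and 2.47 CPM in vector cells (log2 fold change 1.34, SE 0.30, adjusted p = 0.00779). ITGB7, its gut-homing partner, had 8.58, 8.47 and 5.64 CPM in BHLHE22 cells, against 4.01, 3.74 and 4.30 CPM in vector cells (log2 fold change 0.91, SE 0.20, adjusted p = 0.00729). Both were higher in every BHLHE22 library than in any vector library, where 60.5% of all tested genes did not overlap in either direction. ITGAE, the other known partner of ITGB7 and a receptor for E-cadherin, was not called, with 6.09, 8.04 and 6.90 CPM in BHLHE22 cells and 5.97, 4.49 and 7.18 CPM in vector cells (log2 fold change 0.25, SE 0.20, adjusted p = 0.335). ITGA9, the nearest relative of ITGA4, had 5 reads over the BHLHE22 libraries and 12 over the vector libraries and was not tested.

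Of the 10 tested laminin genes, 3 fell and 0 rose, beside 24.3% and 25.1% of all tested genes, and LAMB3, which assembles with LAMA3, was not called. LAMA3, the alpha chain of the epithelial anchoring trimer, had 587, 581 and 585 CPM in BHLHE22 cells, against 971, 1316 and 892 CPM in vector cells (log2 fold change -0.86, SE 0.14, adjusted p = 0.00209). The BHLHE22 libraries were nearly identical, and all lay below the vector libraries, of which replicate 2 was the highest. Without vector replicate 2 the log2 fold change was -0.67.

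LAMB3, the beta chain of that trimer, had 509, 501 and 538 CPM in BHLHE22 cells, against 484, 634 and 448 CPM in vector cells (log2 fold change -0.02, SE 0.13, adjusted p = 0.923). In FPKM, the ratio of LAMA3 to LAMB3 was therefore 0.427, 0.429 and 0.402 in the BHLHE22 libraries, against 0.742, 0.767 and 0.735 in the vector libraries. This ratio was nearly constant within each group, including vector replicate 2, in which both genes were high.

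**Figure D4:**
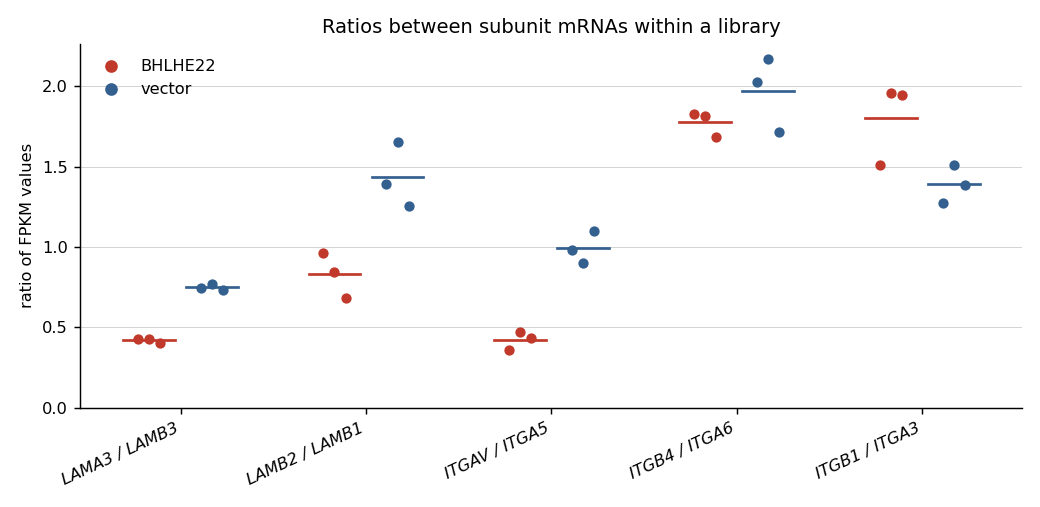
Ratio of the FPKM values of the named gene pairs (y axis) within each BHLHE22 library (red, left) and each vector library (blue, right), with bars at the means. The ratios of LAMA3 to LAMB3, LAMB2 to LAMB1 and ITGAV to ITGA5 are lower in every BHLHE22 library, and that of ITGB4 to ITGA6 overlaps between the groups.

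LAMB2, the beta chain typical of muscle, nerve and kidney basement membranes, had 281, 252 and 202 CPM in BHLHE22 cells, against 422, 439.8 and 382 CPM in vector cells (log2 fold change -0.76, SE 0.13, adjusted p = 0.00224). LAMB1, its widely expressed counterpart, averaged 264 ± 2 CPM in BHLHE22 cells and 260.5 ± 19.7 CPM in vector cells (log2 fold change 0.02, SE 0.08, adjusted p = 0.841). The FPKM ratio of LAMB2 to LAMB1 was 0.830 ± 0.140 in BHLHE22 cells and 1.43 ± 0.20 in vector cells (SD, n = 3). In FPKM, LAMB2 was thus the higher of the pair in every vector library and the lower in every BHLHE22 library, where the ratios were 0.961, 0.847 and 0.682. Which of the pair is more abundant depends on the gene lengths behind the FPKM. In CPM, LAMB2 was higher than LAMB1 in BHLHE22 replicate 1 (281 against 262) and lower in replicates 2 and 3.

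LAMA4, the alpha chain of vessel walls and other mesenchymal tissues, was a low-level gene that fell as well. It had 9.83, 10.5 and 9.60 CPM in BHLHE22 cells, against 15.4, 18.2 and 18.7 CPM in vector cells (log2 fold change -0.80, SE 0.13, adjusted p = 0.00171). The endothelial genes CDH5, VWF and TEK had 0, 2 and 16 reads over the BHLHE22 libraries and 2, 4 and 5 over the vector libraries. PECAM1 of the same marker list had 990 reads over the BHLHE22 libraries and 2352 over the vector libraries and fell, and the summed level of the 4 genes was 19.8 to 26.6 CPM in BHLHE22 and 50.2 to 64.8 CPM in vector libraries. Of the fibroblast markers, COL1A2, DCN and PDGFRB had 13, 5 and 12 reads over the BHLHE22 libraries and 20, 0 and 13 over the vector libraries. COL1A1 fell, LUM rose (85 reads over the BHLHE22 libraries and 18 over the vector libraries, adjusted p = 0.00335), and the summed level of the 5 genes was 49.4 to 51.7 CPM in BHLHE22 and 63.6 to 74.1 CPM in vector libraries. The part of other cells in the result for LAMA4 was not tested.

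LAMA5 and LAMC1, chains of the most widespread laminins of adult tissue, were not called. LAMA5 had 868, 848 and 711 CPM in BHLHE22 cells and 918, 862 and 775 CPM in vector cells (log2 fold change -0.07, SE 0.10, adjusted p = 0.587). LAMC1 averaged 224 ± 9 CPM in BHLHE22 cells and 228 ± 3 CPM in vector cells (log2 fold change -0.02, SE 0.07, adjusted p = 0.794). With LAMA3 lower, LAMA5 held 56.0 ± 2.7% of the summed laminin alpha FPKM in BHLHE22 libraries, against 43.0 ± 4.6% in vector libraries, and LAMA3 held 43.2 ± 2.6% in BHLHE22 libraries, against 56.1 ± 4.6% in vector libraries. LAMA2 and LAMC3 were low, at 1.61 ± 0.50 and 2.57 ± 0.79 CPM in BHLHE22 cells and 1.28 ± 0.15 and 2.78 ± 0.57 CPM in vector cells, and neither was called. LAMA1, the embryonic alpha chain, and LAMB4 had 4 and 1 reads over the BHLHE22 libraries and 4 and 2 over the vector libraries and were not tested.

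Of the tested members, 14 share exon bases with another annotated gene that has reads. Whether the counting used strand is not given, so reads in the shared bases cannot be told apart. LAMA5 shares 244 exon bases on the opposite strand with ADRM1, which had 7065 reads over the BHLHE22 libraries and 6076 over the vector libraries and was not called. LAMB1 shares 70 with DLD and ITGA7 44 with METTL7B, both on the opposite strand and both called higher (log2 fold changes 0.52 and 0.85). ITGB7 shares 1886 exon bases with ZNF740 on the opposite strand, which had 2547 reads over the BHLHE22 libraries and 3831 over the vector libraries and fell (log2 fold change -0.63), while ITGB7, with 322 reads over the BHLHE22 libraries and 169 over the vector libraries, rose; its values are uncertain. ITGAE shares 427 exon bases with the mitotic kinase gene HASPIN on the opposite strand, which rose (log2 fold change 0.93, adjusted p = 0.00232), so the ITGAE values are uncertain. ITGB2 shares 303 exon bases with ITGB2-AS1, which had 34 reads over the BHLHE22 libraries and 128 over the vector libraries and fell with it (log2 fold change -1.92, adjusted p = 0.00310). ITGB8 shares 98 exon bases with AC004130.1, which also fell (16 reads over the BHLHE22 libraries and 42 over the vector libraries). ITGB1 shares 42 exon bases with ITGB1-DT, a divergent RNA that rose with it (377 reads over the BHLHE22 libraries and 118 over the vector libraries, log2 fold change 1.62, adjusted p = 0.000381). ITGA1 shares 475 exon bases on the same strand with PELO, which had 3092 reads over the BHLHE22 libraries and 2529 over the vector libraries and was not called (log2 fold change 0.25, adjusted p = 0.0718), so the ITGA1 values are uncertain too. ITGB3 shares 2266 exon bases on the same strand with AC068234.1, which had 5 reads over the BHLHE22 libraries and 0 over the vector libraries. For ITGA10, the only sharing gene was AC243547.1, with 0 reads over the BHLHE22 libraries and 2 over the vector libraries.

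Genes around the subunits were described in lists. Over 9 lists with 103 tested genes, 24 rose and 24 fell (46.6% called, beside 49.4% of all tested genes), with a median log2 fold change of -0.017. The list counts are descriptions, with no test of a list, and stand beside 25.1% of all tested genes that rose and 24.3% that fell. The called share of a list lay between 25% (inactivators) and 71.4% (latent TGF-beta genes).

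Of 11 tested extracellular ligands, 2 rose and 4 fell (median -0.14). FN1, the gene of fibronectin and a ligand of the ITGA5 and ITGAV receptors, had 861, 806 and 716 CPM in BHLHE22 cells, against 3656, 3536 and 3149 CPM in vector cells (log2 fold change -2.12, SE 0.10, adjusted p = 1.84e-05). COL3A1, MFGE8 and COL1A1 had log2 fold changes of -3.04, -1.17 and -0.47. Against these, THBS1 and TNC, matricellular ligands, rose by 1.96 and 1.17. The other 5, among them the CCN proteins CCN1 and CCN2 and the fibrillin gene FBN1, were not called. Of 7 tested cell-surface ligands, 3 rose and 0 fell (1 fell without vector replicate 3), with a median of 0.11: ICAM1, a ligand of the leukocyte integrins, had a log2 fold change of 0.56 (adjusted p = 0.00601), ADAM15 of 0.56 and ADAM9 of 0.26. The call of ADAM9 was lost in 6 of 13 alternatives, with adjusted p = 0.109 and 0.110 without BHLHE22 replicates 1 and 2, and 0.117 and 0.100 without vector replicates 1 and 2.

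Of 12 tested basement membrane partners of the laminins, 2 rose and 5 fell (median -0.27), beside 25.1% and 24.3% of all tested genes. NTN4, a laminin-related netrin that binds laminin networks, fell the most, with 112, 101.2 and 109 CPM in BHLHE22 cells and 276, 386 and 255 CPM in vector cells (log2 fold change -1.51, adjusted p = 0.000385). The collagen genes COL18A1, COL4A1 and COL4A5 followed with -1.01, -0.97 and -0.59, and PXDN, a peroxidase gene of collagen IV crosslinking, with -0.33 (call lost with unscaled library sizes, adjusted p = 0.055), while COL4A6 and the nidogen gene NID2, whose product links laminin to collagen IV, rose by 0.65 and 0.51. Of 12 genes of hemidesmosomes and other laminin receptors, 3 rose and 2 fell (median 0.06). PLEC, the gene of plectin, which ties ITGB4 to keratin filaments, rose by 0.54, and the syndecan gene SDC4 and POMT2, an enzyme gene of dystroglycan glycosylation, rose by 0.70 and 0.47. BCAM, a receptor for LAMA5, fell by 0.77. DST, the other hemidesmosome linker, had a log2 fold change of -0.36 whose call was lost without BHLHE22 replicates 2 and 3 (adjusted p = 0.110 and 0.0739) and without vector replicates 1 and 2 (adjusted p = 0.103 and 0.0703), leaving 1 fall in the list.

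Of 20 tested integrin activators and actin linkers, 8 rose and 2 fell (median 0.19), beside 25.1% and 24.3% of all tested genes. ACTN1, which crosslinks actin at adhesions, had 1465, 1576 and 1591 CPM in BHLHE22 cells and 769, 772 and 777 CPM in vector cells (log2 fold change 1.00, SE 0.07, adjusted p = 9.04e-05). TLN2, FLNA and TNS4 rose by 1.18, 0.39 and 0.58. The falls were ZYX, the gene of zyxin, with 391, 542 and 486 CPM in BHLHE22 cells, against 1074, 1091 and 1011 CPM in vector cells (log2 fold change -1.16), and LIMS1, the gene of the adaptor PINCH, with -1.48. ILK, whose product binds that adaptor, averaged 93.8 CPM in both groups and was not called (adjusted p = 0.997).

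Of 19 adhesion kinases and scaffolds, 2 rose and 4 fell (median -0.08). The scaffold genes NEDD9 and TGFB1I1 changed by -1.82 and -1.04, and the SRC family kinase genes LYN and FYN by 1.07 and 0.67. SRC fell by 0.29 and PTK2, the gene of focal adhesion kinase, by 0.27 on the log2 scale. The call of SRC was lost without BHLHE22 replicate 2 (adjusted p = 0.0797) or vector replicate 1 (0.0623), and that of PTK2 in 7 of 13 alternatives, among them those without BHLHE22 replicate 2 (0.111) or 3 (0.0876) and vector replicate 2 (0.0829) or 3 (0.0645). Without BHLHE22 replicate 2, 2 genes of this list fell. Of 4 tested genes listed as inactivators, SHARPIN alone was called, with a log2 fold change of -0.31 (adjusted p = 0.0192). Its call was lost without BHLHE22 replicate 2 (0.0851) or vector replicate 1 (0.0716) or 2 (0.0558). The name of this list is a label only, and FBLIM1, which is counted in it, need not restrain integrins.

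Of 11 integrin-associated membrane and trafficking genes, 3 rose and 2 fell (median 0.14). CD47, which associates with ITGAV and ITGB3 and is a ligand of SIRPA on macrophages, had 196, 201 and 207 CPM in BHLHE22 cells, against 105, 85.9 and 126 CPM in vector cells (log2 fold change 0.94, adjusted p = 0.00115). The tetraspanin genes TSPAN4 and CD81 had log2 fold changes of 0.70 and 0.66, and CD9 of -0.42. The call of CD81 was lost without vector replicate 1 (adjusted p = 0.0560) and that of CD9 without vector replicate 2 (0.0598). RAB21, an endosomal GTPase gene of integrin traffic, had -0.30, with its call lost without BHLHE22 replicate 1 (0.0567) or 2 (0.0987) and vector replicate 1 (0.0731) or 2 (0.0545), so that 0 or 1 genes of the list fell without 1 of these libraries.

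The latent TGF-beta genes, whose complexes are ligands of the ITGAV integrins, were the last list. Of 7 tested, 1 rose and 4 fell (median -0.38), beside 25.1% and 24.3% of all tested genes, and 2 rose without vector replicate 2. All of the tested LTBP genes, which encode the proteins that tether latent TGF-beta to the matrix, fell, with log2 fold changes of -0.84 for LTBP3, -0.65 for LTBP2, -0.51 for LTBP4 and -0.36 for LTBP1. The call of LTBP1 was lost with unscaled library sizes (adjusted p = 0.0536). TGFB3 rose, with 17.2, 16.8 and 18.4 CPM in BHLHE22 cells, against 7.49, 9.59 and 9.16 CPM in vector cells (log2 fold change 1.00, adjusted p = 0.000912). TGFB1 and TGFB2 were not called (log2 fold changes -0.38 and 0.10, adjusted p = 0.0779 and 0.736).

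**Figure D5:**
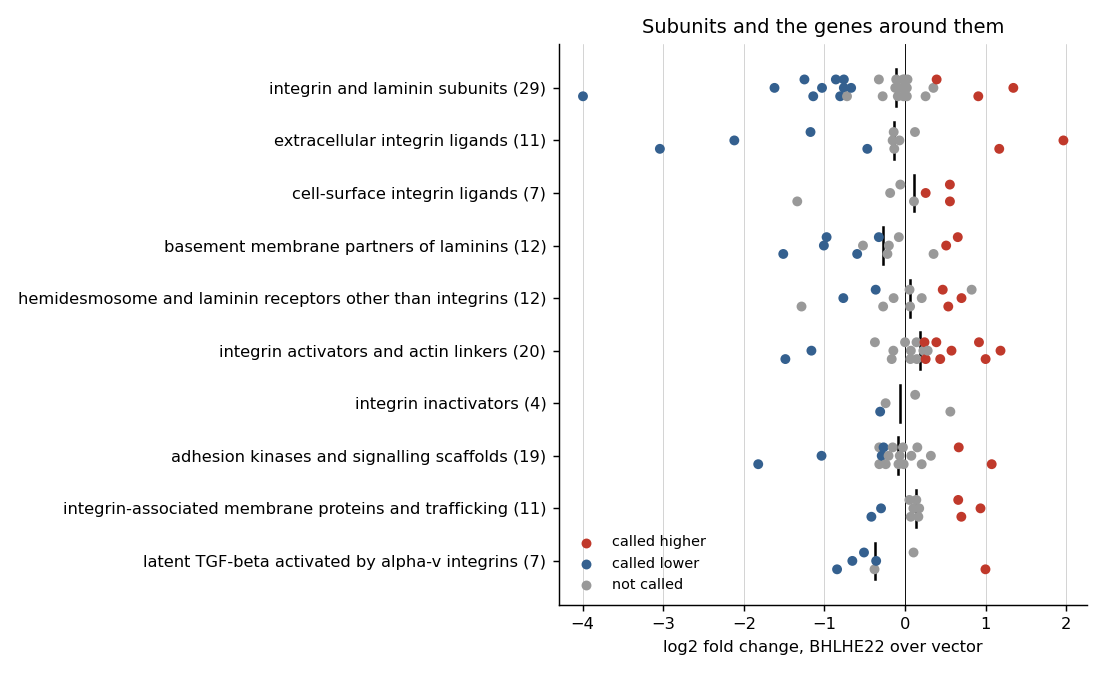
Log2 fold change (BHLHE22 over vector) of the tested integrin and laminin subunits (top row) and of the tested genes of 9 lists of ligands, partners and adaptors, with the number tested in parentheses, the colour of each point for its call and a black bar at the median of each row. Every row but the cell-surface ligands and the inactivators holds genes that rose and genes that fell, and all medians lie between -0.38 and 0.19.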

How the data were processed

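RNA of 3 BHLHE22 and 3 vector libraries was measured. The authors deposited 1 table with whole-number read counts per Ensembl gene and FPKM values (fragments relative to gene length and library total). The FPKM deposited by the authors followed from count, a fixed gene length and the total count, within 0.1% for 100% of 26866 genes, and had no TMM scaling. They served to set genes side by side and to give shares and ratios within a library. Where the FPKM of a gene is given for both groups, the difference lacks that scaling. Calls and fold changes rest on the TMM-scaled counts. The gene length itself was not checked. Per the submitters' processing notes, the tools were StringTie 1.3.4b, HISAT2 2.1.0, CASAVA 1.8 and edgeR and the builds hg38 and GRCh38; what each tool did, and any counting option or strand setting, is not given. Columns headed control were taken as the vector libraries.

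Counts were tested with edgeR 4.0.16 (R 4.3.3; filterByExpr, TMM, robust quasi-likelihood, group as the only term, 2-sided) over all 15945 tested genes, which held 99.8% of the counts. Common biological variation was 17.0%. Of the 29 tested members, 28 are named (1 member and 1 marker are not reported here), with up to 6 called genes per list by smallest p, and FN1. The members and lists were chosen with earlier results of these data known. Genes or markers named beyond this rule were chosen after their values were seen. Positions of 35 of 38 members equal those of GENCODE 29. Depth sets the precision: floors (3 counts over a group) cover counting error only. Alternatives were DESeq2 1.42.0, limma-voom (limma 3.58.1), DESeq2 size factors or unscaled sizes in edgeR, 2 other filters (any count; 1 CPM in 3 libraries), the replicate number as a block, and leaving out each library. The procedure was tested on simulated data.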

Additional observations from a re-analysis of the deposited data

How the results depend on the processing

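Over 13 alternatives, 12 of the 13 called members kept direction and call, and ITGB1 lost its call in 2. No alternative moved a tested member by over 1.26-fold. Called members numbered 2 to 3 higher and 10 to 11 lower over these alternatives. With unscaled library sizes, 64.0% of the called genes were higher, against 50.7% with TMM; the 9 lists had 32 higher and 16 lower, against 24 and 24. Of the 43 list genes named by the rule, 10 lost their call in some alternative, among them CD9, DST, LTBP1, PTK2, PXDN, RAB21, SHARPIN and SRC with unscaled library sizes (adjusted p 0.0536 to 0.251).

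Of 16 members not called, 11 changed sign somewhere. With unscaled library sizes the log2 fold changes were 0.13 for ITGA5, 0.055 for ITGA7, 0.035 for ITGB4, 0.073 for LAMA5, 0.13 for LAMB3, 0.12 for LAMC1 and 0.027 for LAMC3. When each library was left out in turn, the ranges were -0.063 to 0.14 for ITGA3, -0.12 to 0.14 for ITGA5, -0.063 to 0.13 for ITGA6, -0.20 to 0.028 for ITGB4, -0.13 to 0.018 for LAMA5, -0.038 to 0.060 for LAMB1, -0.11 to 0.15 for LAMB3, -0.040 to 0.015 for LAMC1 and -0.31 to 0.10 for LAMC3. The cause was not tested.

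Deviations of libraries with the same replicate number correlated by 0.0054, -0.027 and 0.010, so the numbers were not read as pairs. The fit with the replicate block called 3 members higher and 10 lower, and 3688 genes higher and 3604 lower in all. With unscaled library sizes, hemidesmosome and laminin receptor genes had 5 higher and 1 lower, kinases and scaffolds 5 and 2, associated membrane genes 5 and 0, and inactivators 0 lower. Depth limits the 9 members that were not tested.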

Other observations

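The genes named here were chosen after their values were seen. DAG1, the gene of the laminin receptor dystroglycan, had 39.1, 33.4 and 30.0 CPM in BHLHE22 libraries, against 26.5, 199 and 23.7 CPM in vector libraries. Vector replicate 2 alone lay far above every other library, and DAG1 was not called (log2 fold change -1.28, SE 0.89, adjusted p = 0.284). FBLIM1, whose product migfilin binds filamin and kindlin, had 41.8, 113 and 42.5 CPM in BHLHE22 libraries, with replicate 2 apart, and 44.8, 48.3 and 40.8 CPM in vector libraries (not called, adjusted p = 0.310). VCL, the gene of vinculin, had 1559, 906 and 868 CPM in BHLHE22 libraries and 1073, 978 and 692 CPM in vector libraries, with BHLHE22 replicate 1 the highest (not called, adjusted p = 0.443).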
